A study of Mus musculus with 4 samples.

Results

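The super-killer (SKI) complex and its ribosome rescue partners were followed as 5 genes picked by name: Skiv2l, Ttc37 and Wdr61, which encode the SKI complex, and Hbs1l and Pelo, which encode a pair of factors that act on stalled ribosomes. All 5 were found among the 54752 genes of the deposited tables, with 1 row each in every table. All 5 also passed the filter that left 13597 protein-coding genes for testing (FPKM above 0.5 in at least 1 library). Total RNA was sequenced from the epidermis of 4 C57BL/6 mouse pups at postnatal day 0, with 2 Skiv2l ctl and 2 Skiv2l fl/fl K14-Cre pups, 1 library each. In Skiv2l fl/fl K14-Cre pups both Skiv2l alleles carry loxP sites, and the Cre recombinase is driven by the keratin 14 promoter, so the gene is deleted in keratinocytes and is left in other cells of the epidermis. Skiv2l ctl pups were littermates of the genotypes Skiv2l fl/fl, Skiv2l fl/+ or Skiv2l fl/+ K14-Cre, so a control pup may itself carry 1 deleted allele. Which of these genotypes each control pup had is not given per sample, and the control pups form 1 group. Skiv2l fl/fl K14-Cre libraries are called knockouts for short, and pups of a genotype are separate animals. Values are FPKM, the fragments assigned to a gene scaled for transcript length and for library size. Comparisons between libraries still depend on the scaling, and those between genes on sequence shared with other genes, as given below.

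Messenger RNAs that cannot be finished, because they lack a stop codon or hold a stalled ribosome, are broken down in the cytoplasm while ribosomes are still on them. SKIV2L is the helicase that pulls such an mRNA, 3′ end first, into the cytoplasmic RNA exosome. TTC37 is the scaffold of the SKI complex, and WDR61 is its WD repeat subunit, which also belongs to the PAF1 transcription elongation complex in the nucleus. PELO enters the empty site of a stalled ribosome together with the GTPase HBS1L, after which the ATPase ABCE1 splits the ribosome into its subunits. The Hbs1l gene also makes a shorter splice form that bridges the SKI complex and the exosome. A gene-level value cannot separate that form from the GTPase.

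In the knockout epidermis the Skiv2l transcript was lower, the Hbs1l and Wdr61 transcripts were higher, and the Ttc37 and Pelo transcripts did not pass the test. Mean FPKM was 0.506 times the control for Skiv2l, 1.54 times for Hbs1l, 1.33 times for Wdr61, 1.20 times for Ttc37 and 1.08 times for Pelo. Calls rest on limma on log2(FPKM + 1), fitted over all 13597 tested genes, at a Benjamini-Hochberg adjusted p under 0.05, with fold changes given as Skiv2l fl/fl K14-Cre minus Skiv2l ctl on that scale, which understates changes of low values. Of the 5 members, 2 were called higher and 1 lower, whereas 9.00% of all tested genes were called higher and 25.4% lower. Under median scaling of the libraries the higher genes made up 54% of all calls, and under quantile normalization 46.8%, in place of 26.2%. Both scalings called Ttc37 higher as well, so that 3 members were higher and 1 lower. Of all 13597 tested genes, median scaling called 1896 higher and 1612 lower, and quantile normalization 1680 and 1910. The median log2 fold change of all tested genes was -0.20, and median scaling moved it to -0.03. Relative to that median of all genes, the members changed by -0.72 for Skiv2l, 0.44 for Ttc37, 0.60 for Wdr61, 0.80 for Hbs1l and 0.30 for Pelo. Both Skiv2l fl/fl K14-Cre libraries lay above both controls for Ttc37, Wdr61, Hbs1l and Pelo, which was so for 18.2% of all tested genes. They lay below both controls for Skiv2l, which was so for 55.3%. In bulk epidermis, fewer cells of a type and less RNA per cell cannot be told apart.

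**Figure D1:**
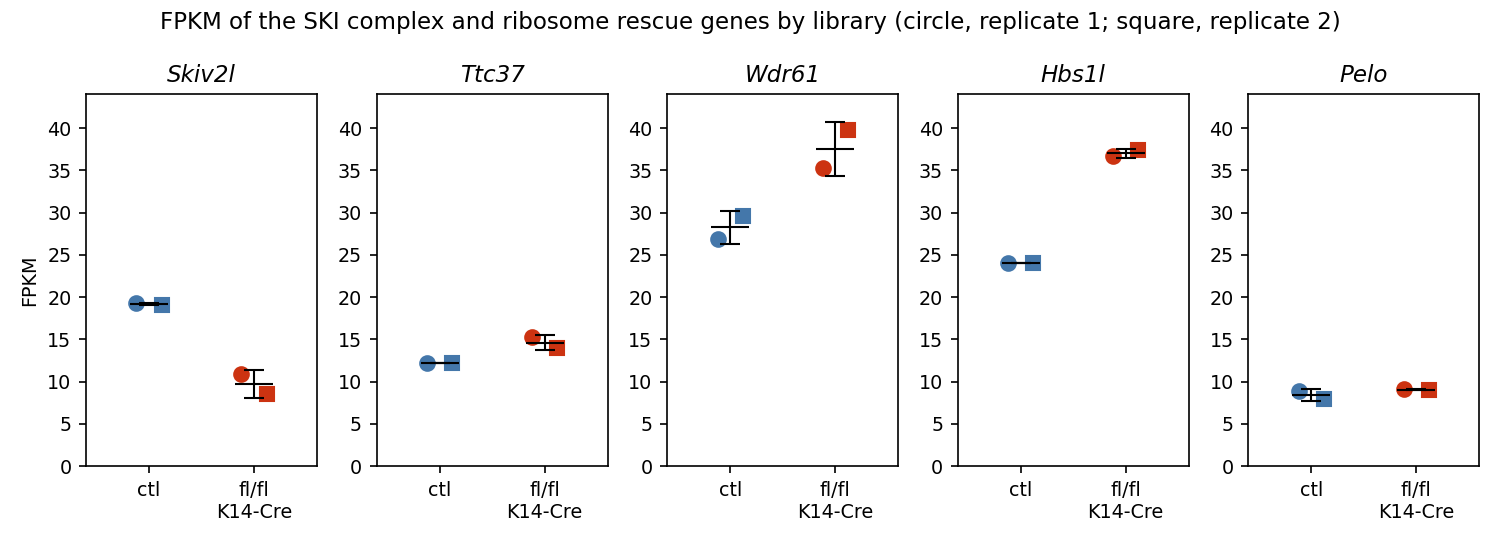
FPKM (y axis) of the 5 genes in the 2 Skiv2l ctl libraries (blue) and the 2 Skiv2l fl/fl K14-Cre libraries (red), with circles for replicate 1, squares for replicate 2, and the mean with its SD in black. Skiv2l drops from 19.2 to 9.70, Wdr61 and Hbs1l climb to 37.5 and 37.0, and Ttc37 and Pelo move least.

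Skiv2l (ENSMUSG00000040356.16), the targeted gene, is read from the minus strand of GRCm38 chromosome 17 between 34839228 and 34850210. The control libraries held 19.3 and 19.1 FPKM of its transcript, and the knockout libraries held 10.8 and 8.55. The controls differed little from each other, and the knockout pups differed more, with the groups well apart. The 2 pups kept 56.6% and 44.6% of the control mean. These values are of RNA, and the paper reported by Western blot that SKIV2L protein was depleted in newborn epidermis of this genotype. The log2 fold change was -0.92 (95% interval -1.23 to -0.62, standard error 0.13, limma adjusted p = 0.00364), which ranked 621 among the falls of all tested genes. No other gene shares a 75-base stretch of Skiv2l transcript sequence. The value covers every exon of the gene, and the exons that Cre removes were not identified here, so fragments of a transcript without the floxed exons would still be counted. The call was lost without the first control (adjusted p = 0.0563), without the second (0.0549) and with no filter on low values (0.0706).

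Cells that do not express the K14 transgene keep an intact Skiv2l gene, so their marker genes are given beside this residual. For comparison with the counts below, 9.00% of all tested genes were called higher and 25.4% lower. The 9 keratinocyte markers, Krt5 and Krt14 among them, summed to 24930 to 28910 FPKM per library and none was at 0 in any library. That sum, mostly Krt1 and Krt10, held opposite changes, with 1 of 9 called higher, 2 called lower and 7 of 9 log2 fold changes below 0. Krt14, whose promoter drives the Cre, was the 1 called higher, from 1736 and 1812 FPKM to 7381 and 7312. The cornified envelope gene Lor (log2 fold change -0.92, limma adjusted p = 0.00108) and the suprabasal keratin gene Krt1 (-0.51, adjusted p = 0.0404) were called lower. The 5 melanocyte markers summed to 47.5 and 54.4 FPKM in controls against 50.6 and 63.5 in knockouts, with 1 of 5 called higher. The 8 leukocyte markers summed to 32.4 and 42.2 against 18.8 and 17.8, with 4 of 7 tested called lower, and the Langerhans cell gene Cd207 was near 0 throughout, at 0.0401 and 0.0417 FPKM against 0 and 0, and was not tested. The 6 fibroblast markers summed to 61.3 and 69.0 against 21.9 and 25.04, with 2 of 5 tested called lower. Most of that sum was Dcn, at 56.96 and 62.7 against 16.9 and 21.4, whereas the median log2 fold change of the tested list was -0.11 and Col1a1 and Col3a1 overlapped between the genotypes. Pdgfra was at 0.299 and 0.2499 FPKM against 0.789 and 0.668 and did not pass (limma adjusted p = 0.0602). The 5 red blood cell markers summed to 134 and 125 against 62.0 and 80.7, with 4 of 5 called lower. Endothelial, muscle and adipocyte markers stayed under 1 FPKM in sum in every library, with 2 of 3 adipocyte markers at 0 throughout, and the 3 Schwann cell markers summed to 6.72 to 8.13. The part of these cells in the remaining Skiv2l signal was not tested.

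Ttc37 (ENSMUSG00000033991.9) is read from the plus strand of chromosome 13 between 76098734 and 76190316. Each control held 12.2 FPKM, and the knockouts held 15.2 and 13.95. Both knockouts stood above the controls, yet the difference of 0.24 on the log2 scale (standard error 0.09) did not pass (limma adjusted p = 0.0934). Its 95% interval ran from 0.01 to 0.47. With median scaling it was 0.44 (adjusted p = 0.0176) and with quantile normalization 0.39 (adjusted p = 0.0275), so this call turns on the scaling.

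Wdr61 (ENSMUSG00000061559.15) is read from the minus strand of chromosome 9 between 54714735 and 54734519. By FPKM it was the most abundant member in the controls. It went from 26.9 and 29.6 FPKM in controls to 35.3 and 39.8 in knockouts. The groups did not overlap, and the libraries of a genotype differed more than for Hbs1l. The log2 fold change was 0.40 (95% interval 0.15 to 0.64, standard error 0.10, limma adjusted p = 0.0278). The call was lost without either control (adjusted p = 0.169 and 0.0977), without the second knockout (0.0787) and with no filter (0.126). Of its 75-base stretches, 31.7% also occur in Dnaja4, a convergent gene that overlaps the end of Wdr61 over 1581 bases, and Dnaja4 went from 7.89 and 6.17 FPKM to 7.06 and 5.02, with overlapping groups. Summed with Dnaja4, Wdr61 had a log2 fold change of 0.30.

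Hbs1l (ENSMUSG00000019977.16) is read from the plus strand of chromosome 10 between 21295979 and 21368898, and gave the largest rise of the 5. Each control library held 24.1 FPKM, and the knockouts held 36.7 and 37.4. The spread within each genotype was far smaller than the gap between them. The log2 fold change was 0.60 (95% interval 0.41 to 0.80, standard error 0.08, limma adjusted p = 0.00347), which ranked 869 among the rises of all tested genes. Over all 15 alternatives its log2 fold change lay between 0.57 and 0.81 and its adjusted p between 0.0014 and 0.0494. Of its 75-base stretches, 29.7% occur in 4 other genes, mainly in the processed pseudogene Gm9923 which went from 3.17 and 3.31 FPKM to 3.83 and 2.81. Summed with those 4 genes, Hbs1l had a log2 fold change of 0.55.

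Pelo (ENSMUSG00000042275.9) is read from the minus strand of chromosome 13 between 115088355 and 115090186, inside the integrin gene Itga1. By FPKM Pelo was the least abundant member in the controls. It went from 8.90 and 7.90 FPKM in controls to 9.10 and 9.02 in knockouts. The first control came close to the knockouts, although the groups did not overlap. The difference was 0.10 on the log2 scale (95% interval -0.15 to 0.35, standard error 0.10) and did not pass (limma adjusted p = 0.475). Of its 75-base stretches, 56.1% occur in other genes, chiefly Gm49395, a gene model that overlaps Itga1 and holds Pelo. Gm49395 went from 1.16 and 1.11 FPKM to 1.23 and 4.14, so how the signal at Pelo is divided is uncertain in the second knockout. The sum of Pelo with these overlapping genes had a log2 fold change of 0.30.

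By FPKM the order of the members changed between the genotypes. The order depends on the measure. By coverage scaled for depth, explained below, Skiv2l was the highest member in controls (14.7 and 14.85), with Wdr61 at 6.24 and 6.87. That measure is averaged over all annotated exons, so its order between genes depends on the annotation and is no plain order of abundance. The joined exons of Wdr61 span 4669 bases against a mean transcript length of 1083 in controls. For Skiv2l they span 4977 against 3834. In Skiv2l ctl epidermis the FPKM order ran Wdr61 (28.3 ± 1.95 FPKM, SD, n = 2), Hbs1l (24.1 ± 0.00419), Skiv2l (19.2 ± 0.148), Ttc37 (12.2 ± 0.0278) and Pelo (8.40 ± 0.707), and no neighbouring pair overlapped. In knockout epidermis it ran Wdr61 (37.5 ± 3.17), Hbs1l (37.0 ± 0.524), Ttc37 (14.6 ± 0.903), Skiv2l (9.70 ± 1.62) and Pelo (9.06 ± 0.0548). There the values of Wdr61 and Hbs1l overlapped, as did those of Skiv2l and Pelo. Among all tested genes the control levels stood at percentile 83.9 for Wdr61, 80.6 for Hbs1l, 75.1 for Skiv2l, 62.6 for Ttc37 and 52.1 for Pelo.

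A ratio taken inside a library does not depend on how libraries are scaled to each other. The FPKM of Skiv2l divided by the geometric mean of the other 4 members was 1.18 in each control but 0.527 and 0.411 among knockouts, a log2 difference of -1.34. Both knockouts were below both controls, and the exact two-sided permutation test over the 4 libraries gave p = 0.333, the smallest value that 2 against 2 allows. Against its scaffold Ttc37 alone, Skiv2l went from 1.58 and 1.57 to 0.712 and 0.613. By FPKM the helicase transcript thus changed from the more abundant of this pair to the less abundant. By coverage scaled for depth, explained below, the first knockout held 6.857 for Skiv2l and 6.434 for Ttc37. The second knockout held 5.885 and 6.221, so on that measure the order changed only in the second. The coverage is averaged over joined exons of 4977 bases for Skiv2l and 11802 for Ttc37, so this order depends on the annotation. Against Hbs1l the log2 difference was -1.62, and against Pelo it was -1.10. Against Wdr61, the other SKI subunit, Skiv2l went from 0.717 and 0.644 to 0.307 and 0.215.

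**Figure D2:**
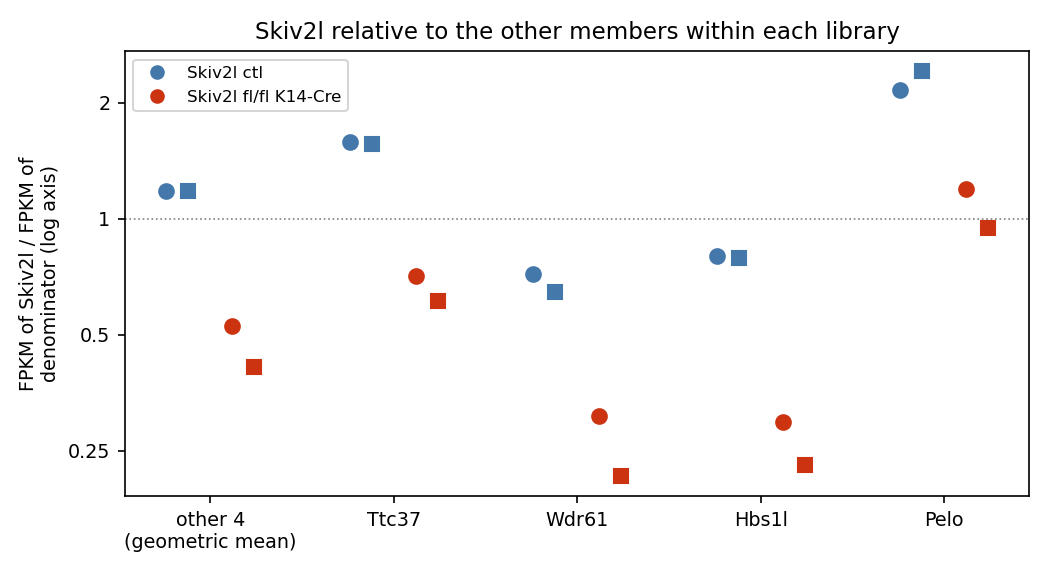
FPKM of Skiv2l divided by that of the other members (y axis, log scale), with their geometric mean on the left and each of them alone to the right, in Skiv2l ctl (blue) and Skiv2l fl/fl K14-Cre libraries (red), circles for replicate 1 and squares for replicate 2. For every denominator both red points lie below both blue points, with 1.18 against 0.527 and 0.411 for the geometric mean.

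The deposited coverage, the mean read depth per base of the gene, gave a further view of the Skiv2l transcripts. The ratio of coverage to FPKM took 1 commonest value in each library, between 5.843 and 6.274, shared by genes with 1 transcript. For genes with several transcripts the ratio is lower, and divided by the commonest value and multiplied by the joined length of all exons it gives the mean length of the transcripts, weighted by their FPKM. Between 94.8% and 94.9% of 10298 such genes fell between their shortest and longest annotated transcript, within a tolerance of 0.5%. For Skiv2l this mean length went from 3794 and 3875 bases to 3146 and 3424, shorter in both knockouts. The log2 difference was -0.22 (standard error 0.05), which did not pass over all genes (limma, unadjusted p = 0.0253, adjusted p = 0.597). No gene passed at an adjusted p under 0.05 (0.00% longer and 0.00% shorter). Of the 10298 genes, 351 were longer and 425 shorter at an unadjusted limma p under 0.05. The share of all genes that were shorter in both knockouts was not counted. Skiv2l has 11 annotated transcripts, of 458 to 4520 bases.

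Coverage divided by the commonest ratio counts bases, averaged over all joined exons, in place of transcripts. It took Skiv2l from 14.7 and 14.8 to 6.86 and 5.88. On this measure the knockouts kept 46.4% and 39.8% of the control mean, with a log2 fold change of -1.10 (limma adjusted p = 0.00424). Hbs1l hardly differed between the 2 measures, with a log2 fold change of 0.57 by coverage and a mean length of 2524 and 2576 bases among controls against 2559 and 2534 among knockouts. Wdr61 went from 1083 and 1082 bases to 1030 and 961 (limma adjusted p = 0.711), and its rise by coverage was 0.25 (adjusted p = 0.0717). For Ttc37 the length was 5184 and 5248 bases against 4986 and 5263, with overlapping groups. Pelo has 1 annotated transcript, of 1600 bases, so its measures coincide.

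**Figure D3:**
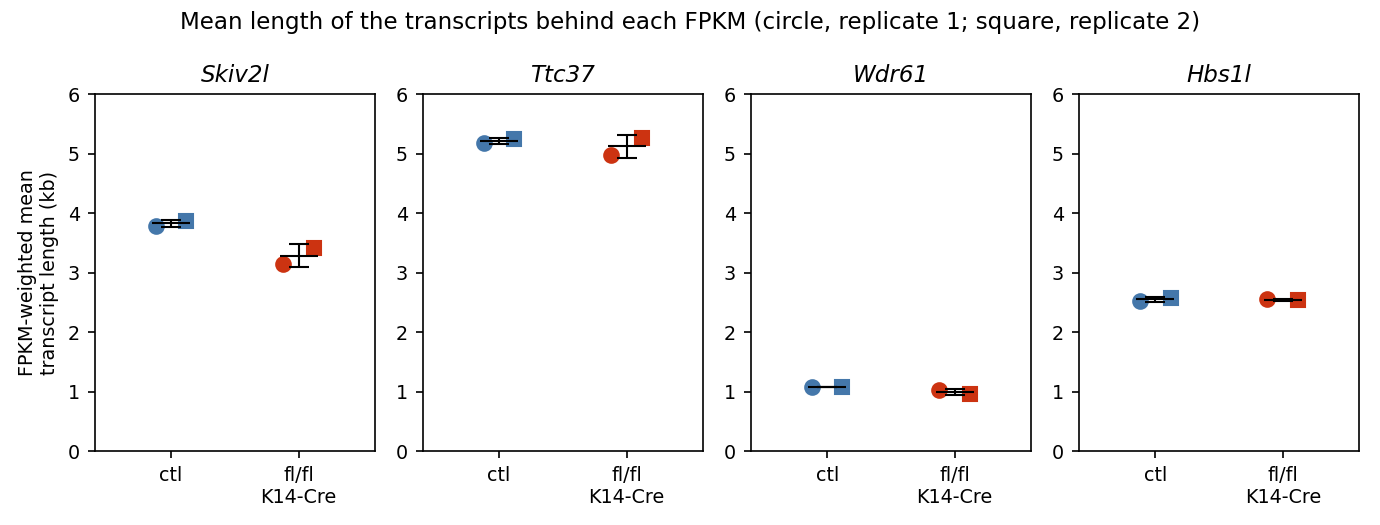
FPKM-weighted mean transcript length in kilobases (y axis) of the 4 members with several annotated transcripts, in the Skiv2l ctl (blue) and Skiv2l fl/fl K14-Cre libraries (red), with the mean and SD in black, circles for replicate 1 and squares for replicate 2. Skiv2l and Wdr61 are shorter in both knockouts, while Hbs1l stays near 2.5 kilobases in all 4 libraries.

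The genes next to each member were read to see whether a change was shared along the chromosome. Skiv2l and Nelfe, a subunit of the negative elongation factor, are transcribed away from each other with 180 bases between them. Nelfe went from 16.96 and 17.3 FPKM to 14.2 and 11.9, lower by limma with a log2 fold change of -0.38 (adjusted p = 0.0434, and 0.0591 when every gene type was tested). Dxo, which meets the 3′ end of Skiv2l with an overlap of 6 bases, went from 20.7 and 17.7 to 20.2 and 18.4, with overlapping groups. Stk19, the next gene beyond it, had a log2 fold change of 0.01. Within 150 kilobases of the Skiv2l start, 5 of the 12 other tested genes were called lower and 0 higher, a share of 41.7% against 25.4% for all tested genes. This window was chosen after the values were seen.

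**Figure D4:**
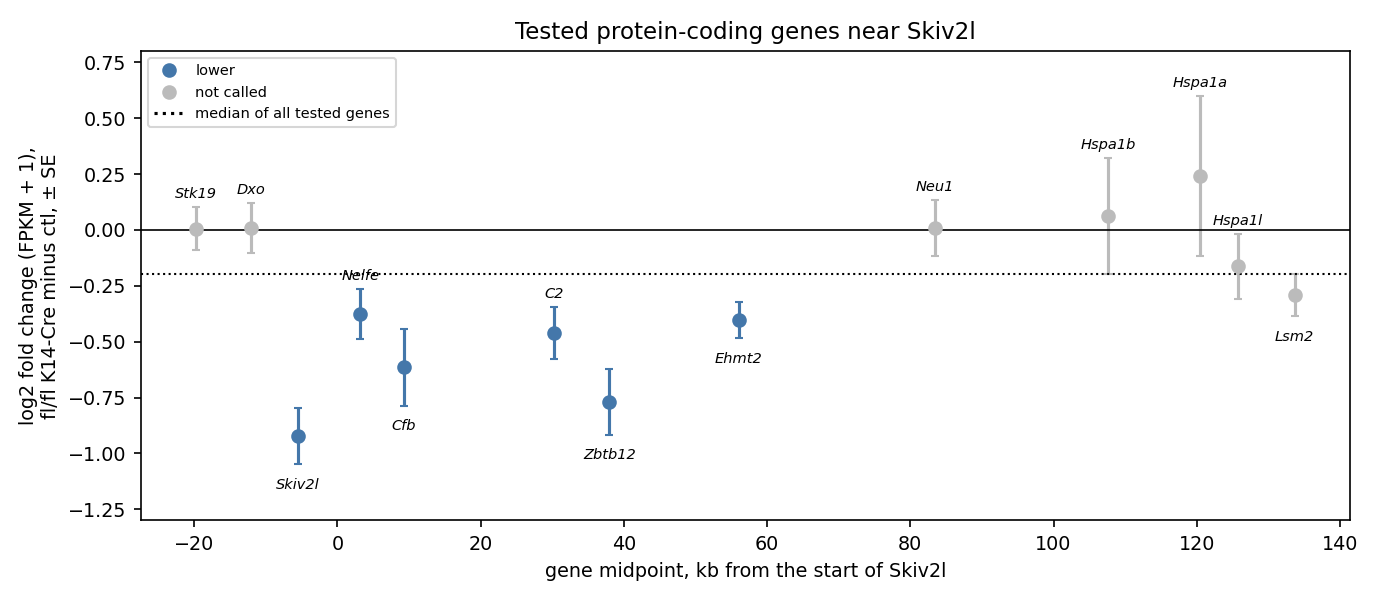
Log2 fold change of FPKM + 1 with its standard error (y axis) for the tested protein-coding genes whose midpoint lies within 150 kilobases of the Skiv2l start (x axis, kilobases), blue where called lower and grey where not called. Skiv2l has the lowest value in the window, and Dxo and Stk19, on the side of its 3′ end, lie near 0.

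The other neighbours moved in both directions. Ttc37 shares its start region with Arsk, which reads away from it at a distance of 73 bases, and Arsk went from 1.74 and 1.73 FPKM to 1.54 and 1.81. Fam81b, on the other side of Ttc37, stayed under 0.1 in each library. Around Hbs1l, the transcription factor gene Myb went from 1.67 and 1.73 to 0.473 and 0.981 (log2 fold change -0.66, limma adjusted p = 0.0345, and 0.056 when every gene type was tested), opposite to Hbs1l, and Aldh8a1 stayed under 0.2. Around Wdr61, Acsbg1, an acyl-CoA synthetase gene, fell by 0.69 on the log2 scale (adjusted p = 0.0237), and Crabp1, not tested, was at 0.161 and 0.263 FPKM against 0 and 0. Around Pelo, Itga1 went from 0.742 and 0.901 to 0.934 and 0.783, Itga2 had a log2 fold change of 0.68 (limma adjusted p = 0.0249) and Isl1 one of -0.42 (adjusted p = 0.0825).

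The sequences just before the start sites are shown to set the member that rose clearly beside those that did not pass. RefSeq entries on GRCm38.p6 were at hand for 3 of the 5 genes, Ttc37, Hbs1l and Pelo. Each line gives the 250 bases up to the start, 5′ to 3′ on the strand of the gene, for Ttc37 at chr13:76098484-76098733 on the plus strand, for Hbs1l at chr10:21295729-21295978 on the plus strand and for Pelo at chr13:115090159-115090408 on the minus strand. Capitals mark matches, on either strand, to any of 7 motifs: the ETS core CCGGAAG, the NRF1 core CGCNTGCG, the E-box CACGTG, the GC box GGGCGG, the CCAAT box, the amino acid response element TGATGNAA and the YY1 motif AAGATGGCG, of which no matches overlapped here.
Ttc37: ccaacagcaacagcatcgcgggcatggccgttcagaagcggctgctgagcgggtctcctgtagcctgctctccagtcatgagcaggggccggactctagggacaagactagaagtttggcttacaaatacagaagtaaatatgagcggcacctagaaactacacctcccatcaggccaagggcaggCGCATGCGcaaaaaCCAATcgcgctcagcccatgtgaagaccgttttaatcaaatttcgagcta
Hbs1l: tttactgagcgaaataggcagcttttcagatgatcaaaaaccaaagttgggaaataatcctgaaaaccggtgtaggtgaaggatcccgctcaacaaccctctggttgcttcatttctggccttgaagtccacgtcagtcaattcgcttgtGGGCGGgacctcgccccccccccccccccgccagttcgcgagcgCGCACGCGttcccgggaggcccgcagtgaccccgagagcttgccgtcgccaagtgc
Pelo: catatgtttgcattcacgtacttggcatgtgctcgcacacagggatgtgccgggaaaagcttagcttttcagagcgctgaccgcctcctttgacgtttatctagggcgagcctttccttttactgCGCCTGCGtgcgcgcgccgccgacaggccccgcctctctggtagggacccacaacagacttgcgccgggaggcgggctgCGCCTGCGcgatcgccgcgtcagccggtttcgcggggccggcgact

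The NRF1 core was found 2 times before Pelo and 1 time each before Ttc37 and Hbs1l, where 6.76% of 32851 promoter windows of the same length hold it. Its letters were shortened after a first search, so these matches are no test of enrichment. The GC box was found before Hbs1l (32.7% of windows) and the CCAAT box before Ttc37 (33.8%). The ETS core (6.91% of windows), the E-box (6.02%), the amino acid response element (3.45%) and the YY1 motif (0.606%) were in none of the 3. The windows held 13, 19 and 29 CG pairs for Ttc37, Hbs1l and Pelo, where the median of all windows was 6. The shares above are over all windows and are not matched for CG pairs, which the NRF1 core itself holds. A match is a run of letters and is no measured binding site.

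The other genes of ribosome rescue and RNA decay held no called rise on the FPKM scale, although 4 were called higher with median scaling. That scaling called 1896 of all 13597 tested genes higher and 1612 lower. Of 66 genes in 6 pathway lists, 65 were tested, and limma called 0 higher and 13 lower (20.0%, against 25.4% of all tested genes). At an unadjusted p under 0.05, 0 were higher and 18 lower. Their median log2 fold change was -0.16, against -0.20 for all tested genes, and none had a larger rise than Wdr61 or a larger fall than Skiv2l. Median scaling left 2 genes called lower, and leaving out either control library left 0.

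Of the 10 genes that split, release or recycle ribosomes, 9 were tested, with a median of -0.19. Of these, 2 were called lower (22.2%, against 25.4% of all tested genes) and 0 higher. Abce1, the ATPase that acts with PELO and HBS1L, went from 23.4 and 21.9 FPKM to 23.99 and 24.9, by 0.11 on the log2 scale (limma adjusted p = 0.365). The 2 called lower were Mcts1 and Gtpbp1. Mcts1, a recycling factor of the small subunit, went from 14.3 and 13.98 FPKM to 10.8 and 10.3 (log2 fold change -0.39, limma adjusted p = 0.0223). Gtpbp1, a GTPase of the HBS1L type, had a log2 fold change of -0.30 (adjusted p = 0.0389). Neither was called with median scaling (adjusted p = 0.173 and 0.463). Gspt1, the termination GTPase closest to HBS1L, had a log2 fold change of -0.05, and Etf1, the release factor related to PELO, one of -0.06. Neither relative passed the test (adjusted p = 0.676 and 0.556).

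Of 28 genes that sense collided ribosomes or clear their nascent chains, 7 were called lower and 0 higher, with a median of -0.05. The share called lower was 25%, against 25.4% of all tested genes. Log2 fold changes were below 0 for 18 of them and above 0 for 10. The largest falls were those of Usp21, a deubiquitinase of the small subunit, at -0.61 (limma adjusted p = 0.00821), Edf1, which binds collided ribosomes, at -0.53 (0.0142), Ascc1, of the ASC-1 complex, at -0.51 (0.00995), and Rnf25, a ubiquitin ligase, at -0.50 (0.027). Usp21 went from 12.1 and 11.1 FPKM to 6.98 and 7.61. With median scaling only Usp21 of these 28 stayed called lower (limma adjusted p = 0.0388) and 4 were called higher. Of all 13597 tested genes, 1612 were lower and 1896 higher with that scaling.

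Of the 12 RNA exosome genes, 3 were called lower (25%, against 25.4% of all tested genes) and 0 higher, with a median of -0.23. Log2 fold changes were below 0 for 11 of them and above 0 for 1. Exosc2, a cap subunit, fell by 0.58 on the log2 scale (limma adjusted p = 0.0125), Exosc7, of the ring, by 0.52 (0.0155), and Exosc10, a nuclear exonuclease, by 0.34 (0.0234). With median scaling 1 of the 12, Exosc2, was called lower (adjusted p = 0.0425). None of 9 genes for the nuclear exosome helicase and its adaptors was called, among them Mtrex, the helicase most like SKIV2L, which went from 11.8 and 10.5 FPKM to 9.86 and 9.77. The farthest from 0 in that list were C1d at -0.30 (adjusted p = 0.0859) and Tent4b at 0.24 (0.24). Of the SKI regulators, Aven was at -0.27 (adjusted p = 0.156) and Focad at 0.14 (0.338). In the PAF1 complex, which shares the WDR61 protein, Ctr9 had a log2 fold change of -0.32 (adjusted p = 0.0452) and the other 4 genes were not called.

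**Figure D5:**
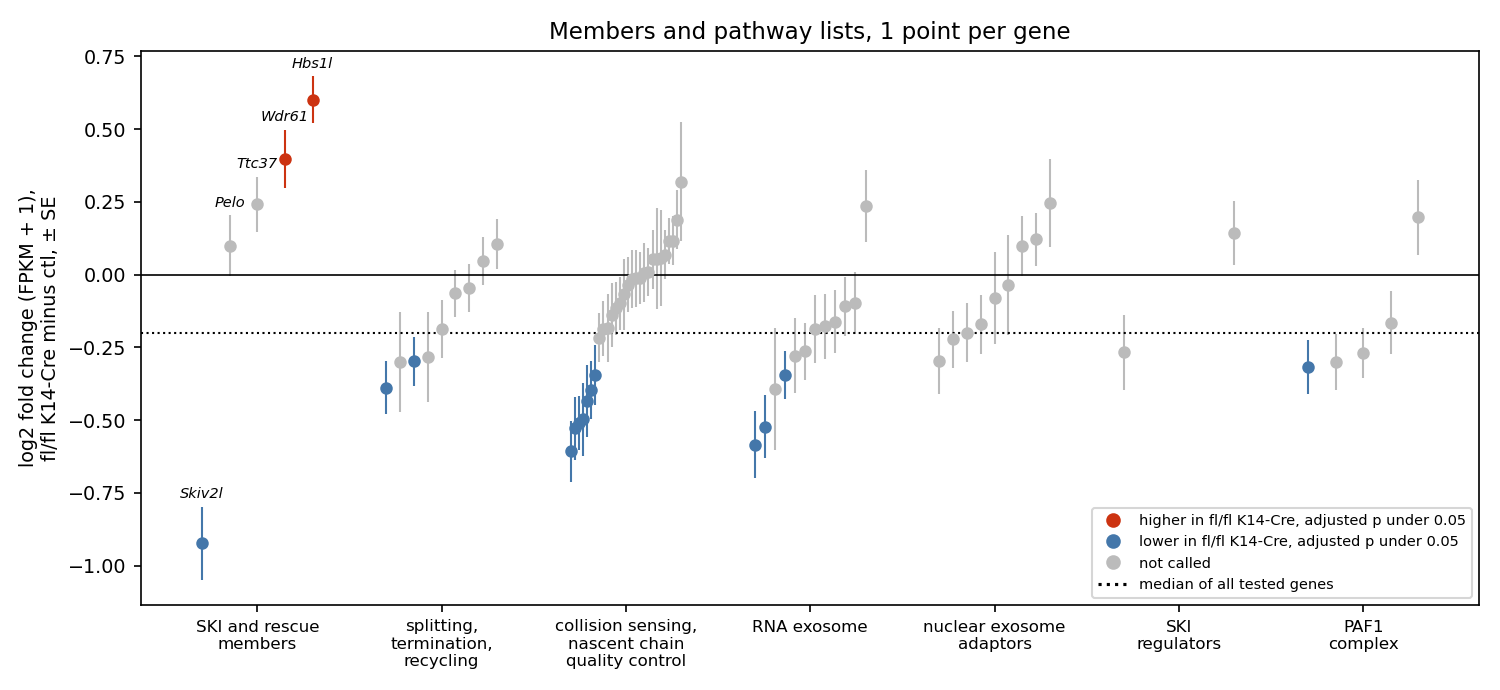
Log2 fold change of FPKM + 1 with its standard error (y axis) for the 5 members and the tested genes of 6 pathway lists (x axis), 1 point per gene, red where called higher, blue where called lower and grey where not called. Hbs1l and Wdr61 are the 2 red points, Skiv2l is the lowest point, and the dotted line marks the median of all tested genes at -0.20.

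The genes whose pattern over the 4 libraries was closest to each member were found by the Euclidean distance of log2(FPKM + 1), centred on each gene's mean. For Skiv2l they were Zfp579, Marveld3 and Zfp810, at distances of 0.026 to 0.028. For Ttc37 they were Ephx4, Wdr7 and Plekha1, and for Wdr61 they were Cept1, Lysmd3 and Hgs. For Hbs1l they were Cask, Vmn1r46 and Ccr9, and for Pelo they were Sirt7, Tbcb and Tbx1. Vmn1r46 was near the floor, at 0.0114 and 0.00535 FPKM in controls against 0.553 and 0.568 in knockouts. Adding 1 shrinks a change of such low values, so its match to Hbs1l holds on this scale only. All these distances were at most 0.036, and with 4 libraries many genes can come this close.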

How the data were processed

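Total RNA of 4 epidermis samples was analysed from 1 table per library. The authors processed the reads with an RNA-seq workflow of their institution on GRCm38; aligner, counter and use of strand are not given in the sources used here. The units were read as the authors left them: FPKM, deposited with length and library size scaled out; TPM, deposited with a constant total per library; and coverage, the deposited and unscaled read depth per base. Coordinates match GENCODE M21 for 53824 of 54752 genes. Gene types came from GENCODE M21, and for 846 genes from RefSeq by symbol and chromosome.

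FPKM was summed per Gene ID. A protein-coding gene entered the test when any library exceeded an FPKM of 0.5. R 4.3.3 with limma 3.58.1 was used for two-sided tests on the log2 values after adding 1 (lmFit, then eBayes with a mean trend), and p-values of the 13597 genes were adjusted by Benjamini-Hochberg. The script was tested on simulated data. Depth, read as coverage over FPKM, was 5.843 to 6.274; without counts no counting error is given, and 2 pups per genotype limit the precision. Limma p-values rest on the spread between these pups, moderated toward that of other genes of like level. The exact permutation p-value was the smallest possible and measures no spread.

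The members and lists were chosen with earlier results of these data known. The genes named are the members, up to 4 called genes per pathway list with the largest change (or up to 2 where none was called), overlapping and adjacent genes, the 3 nearest patterns, and the relatives Mtrex, Gspt1 and Etf1. Marker genes, Abce1 and Gm9923 were named beside results. The analyses of coverage, of transcript length, of shared 75-base stretches and of the 150-kilobase window were added after the data were seen, and the NRF1 and YY1 letters were shortened after a first search. The alternatives tried are given in the closing section.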

Additional observations from a re-analysis of the deposited data

Results flagged for a closer look

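The antisense gene 4930455C13Rik lies within Hbs1l on the opposite strand and is no protein-coding gene, so the comparisons above left it out. It went from 1.04 and 0.647 FPKM in controls to 1.58 and 1.5 in knockouts, a knockout mean of 1.54, above both controls. When every gene type was tested its log2 fold change was 0.47 (limma adjusted p = 0.0993). It shares 195 of the 75-base stretches of Hbs1l, and whether the counting used strand is not given in the sources used here.

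The coverage column, which the study did not report on, gave a shorter mean transcript length for Skiv2l in both knockouts. The log2 difference of -0.22 did not pass the adjusted test over all genes. Wdr61 was shorter in both knockouts as well, by a log2 difference of -0.12 that did not pass either.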

How the results depend on the processing

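Each member kept its direction under all 15 alternatives, and the calls of Hbs1l and Pelo did not change. Skiv2l was -0.92 and lost its call with no filter (adjusted p = 0.0706), and leaving out 1 library gave -1.08 to -0.77. Wdr61 was 0.40 with no filter (no longer called), 0.25 by depth-scaled coverage, an alternative chosen after seeing the data, and 0.31 to 0.48 with 1 library left out. Ttc37 was called with median scaling (0.44) and quantile normalization (0.39). With no filter, which tests 21907 genes, 473 genes were called higher, 920 lower and 3 of the pathway lists lower. Median scaling gave 1896 higher and 1612 lower over all genes, and 4 and 2 in the lists, while quantile normalization gave 1910 lower and 5 in the lists, in place of 1224 higher, 3455 lower, 0 and 13. With 1 library left out, which assumes that a lone library varies like the other group, 496 to 1146 genes were higher and 804 to 3143 lower, with 0 to 2 and 0 to 10 in the lists (0 lower without either control), and the 2 lowest counts over all genes came without a control. The log2 ratio of Skiv2l to the other members, -1.34, was -1.53 by coverage, -1.62 against Hbs1l and -1.10 against Pelo, and -1.52 to -1.16 with 1 library left out. The labels do not say whether same-numbered libraries share an origin. The deviations of same-numbered libraries had a correlation of -0.08 over genes. With the replicate number as a block 1262 genes were higher and 3387 lower, and Skiv2l had an adjusted p of 0.00109. The block changed no call of a member. The cause of each change was not tested.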
